A study of Mus musculus with 2 samples.

Results

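Voltage-gated potassium channel alpha subunits are the pore-forming proteins of the channels that open when a membrane depolarizes, and this is a description of the RNA of that family in mouse cortex. Members were the protein-coding genes whose symbol begins with Kcna, Kcnb, Kcnc, Kcnd, Kcnf, Kcng, Kcnh, Kcnq, Kcns or Kcnv and ends in a number. That rule found 40 genes of the 55536 annotated ones, and it used no measured value. Total RNA from the left side of the cerebral cortex was sequenced in 2 males of the strain B6CASTF1/J, F1 animals of a C57BL/6J and a CAST/EiJ parent, aged 25 days. The animals form 1 group without a treatment or a control. They are called replicate 1 and replicate 2 after the labels, and 300 ng of RNA with a spike-in mix went into each library. Both samples carry the same donor entry in the labels, and every spread given here assumes that they are nonetheless different animals.

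In the living cell, alpha subunits assemble as tetramers around a pore that is selective for potassium ions, and a voltage sensor in each subunit opens it on depolarization. In cortical neurons these channels set the resting potential, the shape of the action potential, the rate of repetitive firing and the return to rest. The Kcnf, Kcng, Kcns and Kcnv proteins are called silent subunits, because they form no working channel alone and modify the Kv2 channels of the Kcnb genes by joining them.

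Levels are given in TPM, a measure scaled to the library total and to transcript length, which allows genes to be compared with each other. They come from the authors' gene table unless a second, separately made transcript table is named. The libraries held 30503944 expected counts in replicate 1 and 33263801 in replicate 2. The neuronal markers Snap25, Syt1, Map2 and Rbfox3 averaged between 147 and 1162 TPM. The glutamatergic markers Slc17a7, Camk2a and Nrgn averaged between 669.6 and 1206 TPM, so the tissue carried markers of neurons. Of the cortical layer markers, 4 of 4 upper-layer and 6 of 6 deep-layer ones reached 1 TPM in both animals. Of 3 photoreceptor markers 0 reached 1 TPM in both animals, while 2 of 3 heart muscle, 1 of 3 cerebellar and 1 of 3 skeletal muscle markers did.

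The family was widely expressed. Detection meant that both animals reached 1 TPM, and 34 of the 40 members did, a share of 85.0%, against 58.2% of all 22028 protein-coding genes. At a mean of 30 TPM or more stood 16 members, or 40.0%, against 17.3% of protein-coding genes. At 50 TPM or more the shares were 20% of members and 9.86% of protein-coding genes. All members together summed to 1105 TPM in replicate 1 and 1033 TPM in replicate 2, and the 10 highest members held 61.1% of that sum in each animal. Since the tissue was measured in bulk, fewer cells of a type and less RNA per cell cannot be told apart in any of these levels.

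**Figure D1:**
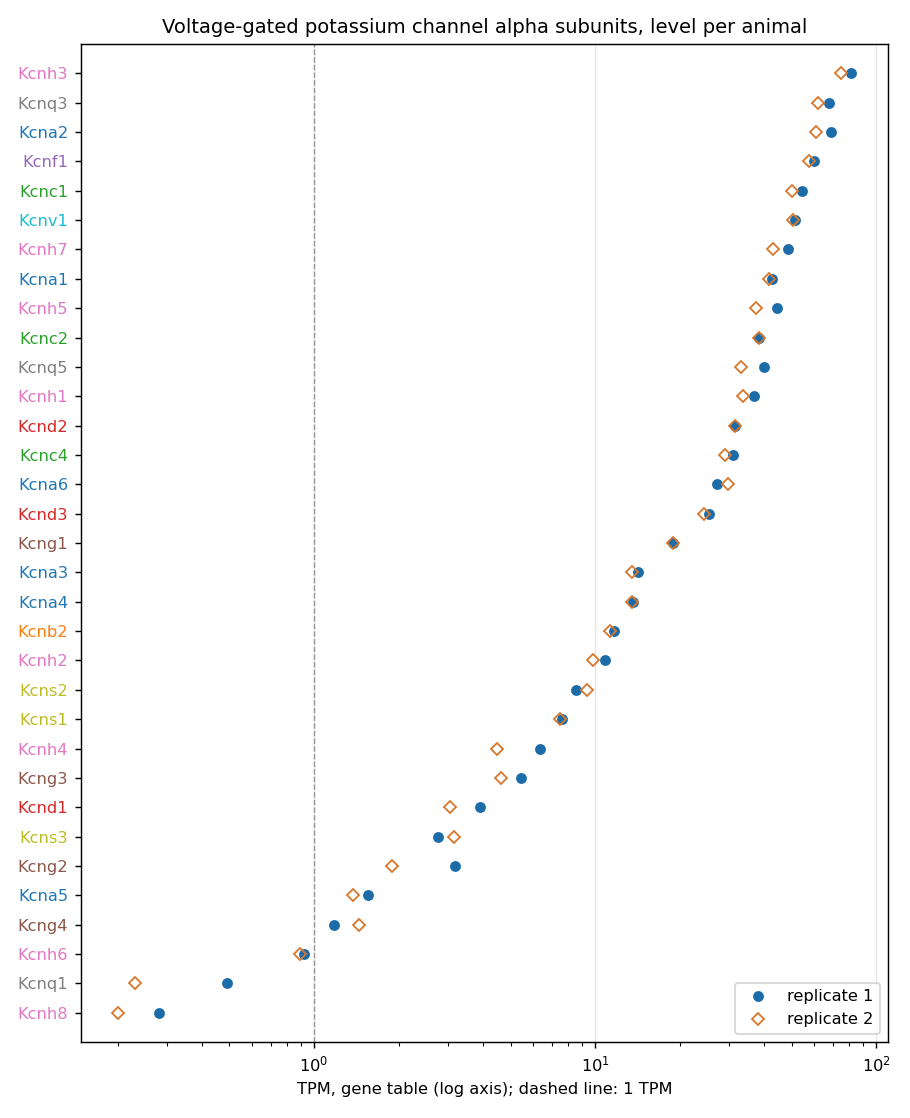
Level of 33 members in each animal, in TPM on a log axis, highest at the top, with names coloured by subfamily. Filled circles are replicate 1, open diamonds replicate 2; Kcnh3 tops the plot near 80 TPM, the points of Kcnh6, Kcnq1 and Kcnh8 lie left of the dashed line at 1 TPM, and Kcna7, Kcna10 and Kcnv2, which had 0 counts in both animals, are not drawn.

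The Kcnq genes encode the channels of the M current, a slow current that limits repetitive firing and that acetylcholine suppresses. Kcnq3, a subunit of the M channel, had 67.9 TPM in replicate 1 and 62.2 TPM in replicate 2. Kcnq5, another M channel subunit, had 40.0 and 33.1 TPM. The ranges of the animals did not overlap between Kcnq3 and Kcnq5, and their ratio was 1.79 ± 0.13 (SD, n = 2). That ratio includes transcripts without a coding sequence, which weigh more in Kcnq3. Its coding transcript Kcnq3-201 had 46.8 TPM in replicate 1 and 40.9 TPM in replicate 2. In Kcnq5 the retained intron Kcnq5-202 had 3.07 and 2.56 TPM. Kcnq1, which carries a repolarizing current in the heart, rested on 16 counts in replicate 1 and 15 in replicate 2, with 0.49 and 0.23 TPM. The deposited posterior means for Kcnq1 were 2.26 and 1.83 TPM, and its second-table levels 0.38 and 0.49 TPM, so its level is uncertain and low in every table.

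The Kcnb genes encode the Kv2 channels, which carry much of the delayed rectifier current of neuronal cell bodies. Kcnb2 had 11.7 TPM in replicate 1 and 11.3 TPM in replicate 2, in the lower part of the detected members.

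The Kcna genes encode Kv1 channels, low-threshold channels found on axons and at nerve endings. Kcna2 led this subfamily with 68.9 TPM in replicate 1 and 61.2 TPM in replicate 2. Kcna1, whose protein combines with that of Kcna2 on axons, had 42.6 and 41.6 TPM. Kcna6 had 27.1 and 29.6 TPM and was the highest member that stood lower in replicate 1 by more than counting error. Kcna3 had 14.2 and 13.6 TPM. Kcna4, which gives a fast inactivating current, had 13.6 and 13.5 TPM over all its transcripts and so overlapped with Kcna3. The coding transcript Kcna4-201 alone, with 10.1 and 10.6 TPM, stood below Kcna3. The processed transcript Kcna4-202 had 3.45 and 2.91 TPM, and the second table listed it at 0 for both animals. That table gave 22.9 and 21.3 TPM for Kcna3 against 14.2 and 15.1 TPM for Kcna4, without an overlap. Kcna5, known from heart muscle and blood vessels, was detected near the limit, at 1.55 and 1.38 TPM. Kcna7 and Kcna10 had 0 counts in both animals. A count of 0 leaves room for up to 3 counts, which is 0.072 TPM in replicate 1 and 0.064 TPM in replicate 2 for Kcna7. For Kcna10 those 3 counts were worth 0.144 and 0.129 TPM, while the deposited posterior means, which are above 0 even without a count, were 0.21 and 0.19 TPM.

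Kv1 genes sit in clusters, and neighbours differed widely in level. On chromosome 3 Kcna3, Kcna2 and Kcna10 follow each other with gaps of 63.1 kb and 68.1 kb between annotated ends, and their mean levels were 13.9, 65.0 and 0 TPM. Kcnc4 lies 243 kb beyond Kcna10 and averaged 29.98 TPM. On chromosome 6 Kcna5, Kcna1 and Kcna6 follow each other at 105 kb and 61.9 kb, with mean levels of 1.47, 42.1 and 28.4 TPM. Each cluster thus holds a member in the middle or upper part of the family's order beside a member near or under 1 TPM.

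The Kcnc genes encode Kv3 channels, which open at high voltage and allow fast-spiking neurons, among them parvalbumin interneurons, to fire rapidly. Kcnc1 had 54.2 TPM in replicate 1 and 50.1 TPM in replicate 2. Kcnc2, known from interneurons, had 38.3 and 38.2 TPM. Kcnc4 had 30.9 and 29.0 TPM. The ranges of Kcnc1, Kcnc2 and Kcnc4 did not overlap. The parvalbumin gene Pvalb itself had 41.4 and 41.5 TPM.

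Kv4 channels, encoded by the Kcnd genes, carry the fast A-type current of dendrites and cell bodies. Kcnd2 had 31.4 TPM in replicate 1 and 31.5 TPM in replicate 2. Kcnd3 followed at 25.4 and 24.3 TPM, a ratio of Kcnd2 to Kcnd3 of 1.27 ± 0.042 (SD, n = 2). Kcnd1 was low, at 3.90 and 3.05 TPM.

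The Kcnh genes belong to the ether-a-go-go group, which splits into EAG (Kcnh1 and Kcnh5), ERG (Kcnh2, Kcnh6 and Kcnh7) and ELK (Kcnh3, Kcnh4 and Kcnh8) channels. Summed, they had 229.2 TPM in replicate 1 and 203.9 TPM in replicate 2, the highest sum among the 7 subfamilies given here. The second table put the Kcnh sum at 323.0 and 294.3 TPM. ELK genes held 0.387 ± 0.0039 of the Kcnh sum, EAG genes 0.350 ± 0.0042 and ERG genes 0.263 ± 0.00025 (fractions, SD, n = 2).

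Within the ELK and ERG branches 1 gene stood far above the others, and the EAG genes were nearly level. Kcnh3, an ELK gene known for its expression in forebrain neurons, had 81.4 TPM in replicate 1 and 74.8 TPM in replicate 2. Its relative Kcnh4 had 6.36 and 4.46 TPM, and Kcnh8 only 0.28 and 0.20 TPM on 24 and 19 counts. Kcnh7, the leading ERG gene, had 48.6 and 43.1 TPM. Kcnh2, known for its role in repolarization of the heart, had 10.8 and 9.81 TPM, and Kcnh6 stayed under the detection level with 0.92 and 0.89 TPM. Of the EAG genes Kcnh5 had 44.2 and 37.3 TPM and Kcnh1 had 36.7 and 33.4 TPM, without an overlap of their ranges.

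**Figure D2:**
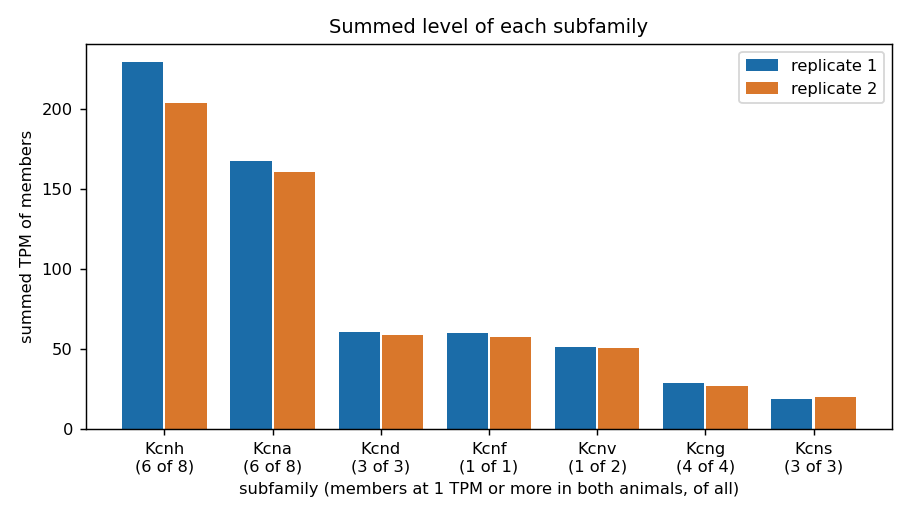
Summed TPM of 7 subfamilies (gene table), replicate 1 left and replicate 2 right in each pair, with the number of detected members of all members under each name. The Kcnh sum stands above 200 TPM in both animals, and the Kcng and Kcns sums under 30 TPM.

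Of the 10 silent subunits 9 were detected, against 25 of the 30 other members. The median of their mean levels was 6.29 TPM, against 29.2 TPM for the other members. Together the 10 silent subunits had 159.2 TPM in replicate 1 and 155.1 TPM in replicate 2, which is 14.4% and 15.01% of the sum of all 40 members. Kcnf1 and Kcnv1 alone made up a fraction of 0.699 ± 0.0020 (SD, n = 2) of the silent sum. Kcnf1 had 60.3 and 57.6 TPM. Kcnv1, a modifier of Kv2 channels, had 51.3 and 50.6 TPM over all its transcripts, in a range that overlapped with Kcnc1.

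The other silent subunits were lower. Kcng1 had 19.0 TPM in replicate 1 and 18.9 TPM in replicate 2 and held 68.1% ± 3.1 of the Kcng sum. Kcng3 had 5.45 and 4.61 TPM, Kcng2 had 3.16 and 1.90 TPM, and Kcng4 had 1.18 and 1.44 TPM. All 3 Kcns genes were detected: Kcns2 had 8.57 and 9.38 TPM, Kcns1 had 7.59 and 7.51 TPM, and Kcns3 had 2.77 and 3.15 TPM. Kcnv2, which is known from photoreceptors, had 0 counts in both animals, with a ceiling of 0.030 and 0.027 TPM. The photoreceptor marker Crx also had 0 counts in both.

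In the order of mean levels, 16 of the 39 pairs of neighbours overlapped in the range of the animals and 23 did not. The 16 include Kcna7 with Kcna10 and Kcna10 with Kcnv2, which are ties of members with 0 counts. Over all their transcripts, Kcnq3 overlapped with Kcna2, and Kcnc1 with Kcnv1. The coding transcript Kcnq3-201, at 46.8 and 40.9 TPM, stood below Kcna2. Kcnv1-201, the coding transcript of Kcnv1, stood below Kcnc1 at 36.55 and 34.9 TPM. By the second table Kcnq3 had 108.1 and 109.6 TPM and Kcna2 had 87.1 and 78.8 TPM, without an overlap. Kcnc1 and Kcnv1 overlapped there as well. Kcna1 overlapped with Kcnh5, Kcnc2 with Kcnq5 and Kcnq5 with Kcnh1, although Kcna1 and Kcnh1 did not overlap. The second table gave levels that were higher in general, a median of 1.59 times over all genes with a mean of 10 counts or more. The members' ratio of the tables ran from 1.08 for Kcna4 to 1.93 for Kcnh8. The Spearman correlation of the members' levels between the tables was 0.995 over 40 genes, which is a description, since both tables come from the same reads.

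The proteins that alpha subunits work with were read from a list of 20 partners, of which 16 were detected. Kv1 beta subunits, which bind Kv1 channels in the cytoplasm, were led by Kcnab2 with 149.4 TPM in replicate 1 and 139.5 TPM in replicate 2. Kcnab1 had 30.9 and 36.2 TPM, and Kcnab3 had 33.6 and 29.3 TPM. Their sum was 1.27 times the Kcna sum in each animal by the gene table, and 1.78 and 1.80 times by the second table.

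The 6 partner genes of Kv4 channels summed to more than the 3 Kcnd genes. The cytoplasmic KChIP proteins and the membrane proteins Dpp6 and Dpp10 together had 4.96 ± 0.13 times (SD, n = 2) the TPM of the 3 Kcnd genes. That ratio adds both kinds of partner, and neither kind was set against the Kcnd genes alone. Among the KChIP genes, Kcnip2 had 63.8 TPM in replicate 1 and 61.8 TPM in replicate 2, Kcnip3 had 49.2 and 52.4 TPM, Kcnip4 had 28.0 and 27.2 TPM, and Kcnip1 had 12.8 and 14.1 TPM. Dpp6 had 78.1 and 79.9 TPM, and Dpp10 had 63.6 and 62.4 TPM. Amigo1, a membrane partner of Kv2 channels, had 31.6 and 31.8 TPM.

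Genes for proteins that cluster Kv1 channels on axons or tie them to synapses were all 5 detected. Adam22 had 97.5 TPM in replicate 1 and 92.7 TPM in replicate 2. Lgi1, a secreted ligand of Adam22 and Adam23, had 63.5 and 61.5 TPM, and Adam23 had 60.2 and 57.6 TPM. Cntnap2 and Cntn2, which hold Kv1 channels beside the node of Ranvier, had 53.8 and 54.2 TPM and 24.3 and 26.4 TPM. The single-pass KCNE subunits were the low exception, since 4 of 5 stayed under 1 TPM and Kcne1l, the mouse KCNE5 gene, had 1.38 and 1.11 TPM.

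Kcne2 stood apart between the animals, with 2 counts in replicate 1 and 26 in replicate 2, or 0.06 and 0.73 TPM. The choroid plexus markers moved with it: all 3 were lower in replicate 1, with a sum of 20.4 TPM in replicate 1 and 195.4 TPM in replicate 2, of which Ttr had 19.5 and 191.9 TPM. Kcne2 is known from choroid plexus, and the part of that tissue in its counts was not tested.

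**Figure D3:**
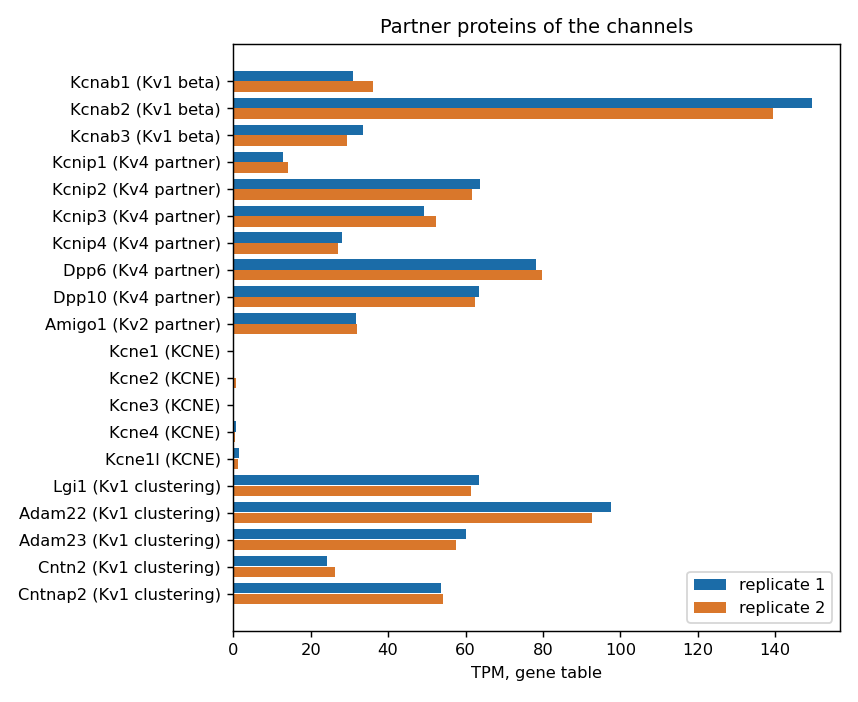
Level of the 20 partner genes in TPM, with the group of each in brackets, replicate 1 above replicate 2. Kcnab2 is the highest at 149.4 and 139.5 TPM, and of the 5 KCNE genes only Kcne1l reaches 1 TPM in both animals.

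Many members make several transcripts, and where those differ in coding sequence the channel protein differs. The annotation lists 132 transcripts for the 40 members, and 9 members have 1 each. The stretches that set apart coding variants of Kcnc1, Kcnh1, Kcnq5, Kcnd3 and Kcng3 are shown next, since their shares are compared after them, in capitals, with up to 12 coding bases on either side in lower case, written 5′ to 3′ on the gene's strand. They come from the annotation's transcripts on mm10, and the variants were picked after their shares were seen. The first pair are the alternative ends of the Kcnc1 coding sequence, which the shared part reaches at the same base.

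Kcnc1-203 end: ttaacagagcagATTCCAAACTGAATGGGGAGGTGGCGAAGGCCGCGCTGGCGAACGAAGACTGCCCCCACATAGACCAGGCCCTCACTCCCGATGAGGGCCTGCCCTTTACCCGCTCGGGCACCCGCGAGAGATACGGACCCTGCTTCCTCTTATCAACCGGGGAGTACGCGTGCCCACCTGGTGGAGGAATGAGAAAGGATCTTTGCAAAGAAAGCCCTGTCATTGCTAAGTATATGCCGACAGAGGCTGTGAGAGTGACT
Kcnc1-201 end: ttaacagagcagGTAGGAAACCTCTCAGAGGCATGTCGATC
Kcnh1-201 insert: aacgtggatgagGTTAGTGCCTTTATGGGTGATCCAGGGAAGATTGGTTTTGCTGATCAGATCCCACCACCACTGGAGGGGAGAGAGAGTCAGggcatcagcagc
Kcnq5-203 exon: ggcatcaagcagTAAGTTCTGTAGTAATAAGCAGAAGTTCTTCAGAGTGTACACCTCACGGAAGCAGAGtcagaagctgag
Kcnq5-201 exon: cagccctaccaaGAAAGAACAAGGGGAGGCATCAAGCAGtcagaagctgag
Kcnd3-201 exon: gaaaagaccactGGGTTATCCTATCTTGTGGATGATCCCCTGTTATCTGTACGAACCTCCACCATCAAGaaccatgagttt
Kcng3-201 insert: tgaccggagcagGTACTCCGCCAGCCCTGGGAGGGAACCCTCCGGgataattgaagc

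Kcnc1 is split evenly between its ends. Kcnc1-203, which has the longer end and a coding length of 1755 bases, lies across the exons chr7:46435158-46435346 and chr7:46437272-46437333 in that stretch. Kcnc1-201 reads on past the shared exon for 29 bases at chr7:46428280-46428308 and has a coding length of 1533 bases. The long form is known as Kv3.1b and the short one as Kv3.1a, and they differ in the cytoplasmic tail. By the first transcript table the long form held 50.1% of the gene's TPM in both animals. By the second table it held 50.9% in replicate 1 and 52.1% in replicate 2. The equal split therefore appeared in both animals and by both tables.

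Kcnh1 gave a similar picture with a different kind of change. Kcnh1-201 carries 81 bases, or 27 codons, at chr1:192277091-192277171, as an extension of an exon that Kcnh1-202 ends earlier. It held 52.3% of the coding TPM, the summed TPM of the gene's transcripts that have a coding sequence, in replicate 1 and 47.5% in replicate 2, while the second table had it at 53.0% and 46.3%. The other form was the higher one in replicate 2, so neither leads in both animals.

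Kcnq5 spread over several forms that differ by whole small exons. Kcnq5-201 has the 27-base exon at chr1:21466383-21466409 and lacks the 57-base exon at chr1:21461551-21461607, and it held 42.2% of the coding TPM in replicate 1 and 41.6% in replicate 2. Kcnq5-203 has both exons and held 31.6% and 34.3%, or 23.4% and 22.8% by the second table. Kcnq5-206 lacks both and held 5.32% and 15.1%, or 15.6% and 27.8% by the second table, so its share is not settled. Kcnq5-205, with a coding length of 2469 bases, moved the other way between the animals, with 20.9% and 8.97%, or 8.65% and 7.2e-07% by the second table. Kcnq5-201 was the highest form in both animals and both tables.

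Kcnd3 was dominated by 1 form. Kcnd3-202, without the 57-base exon at chr3:105666962-105667018, held 91.9% of the coding TPM in replicate 1 and 91.1% in replicate 2. The pair of transcripts that include the exon, Kcnd3-201 and Kcnd3-203, together held 8.11% and 8.91%, while the second table had them at 10.7% and 12.02%.

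Kcng3 differed between the animals in its form. The variant with the 33-base insert at chr17:83630963-83630995, Kcng3-201, held 100% in replicate 1 and 67.2% in replicate 2. The variant without it, Kcng3-202, was listed at 0 TPM in replicate 1 and at 1.51 TPM in replicate 2, and the second table gave shares of 100% and 72.9% for the form with the insert. The gene rested on 357 and 337 counts, and reads over this short stretch could not be seen in the tables used here. Kcnd3 and Kcng3 were picked for this after their values were seen.

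**Figure D4:**
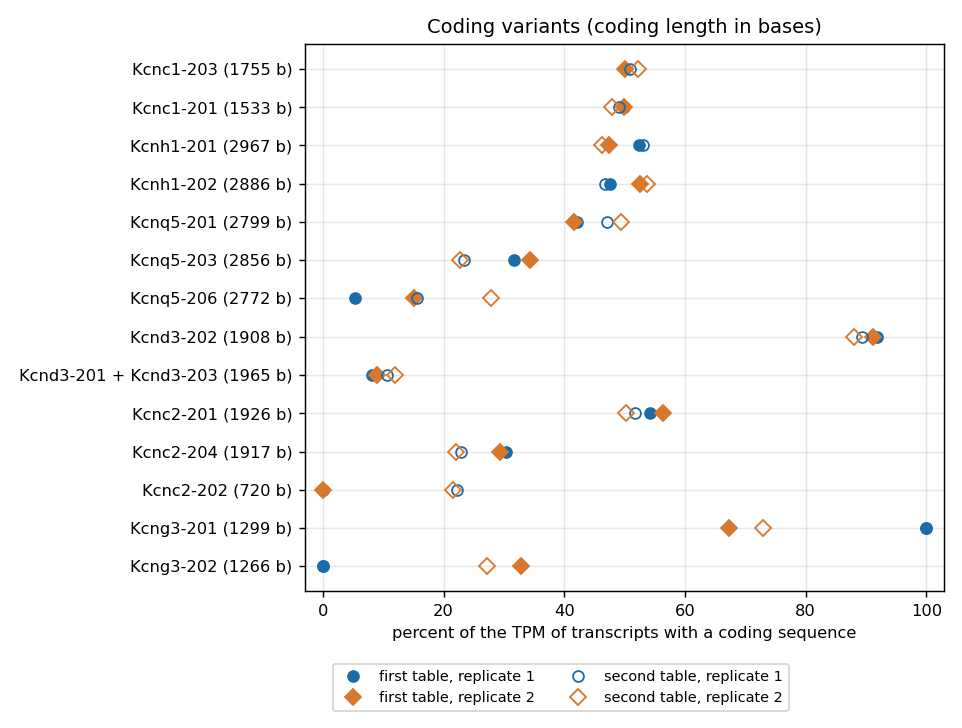
Share of coding variants in the TPM of their gene's transcripts that have a coding sequence, in percent, with the coding length in bases after each name. Circles are replicate 1 and diamonds replicate 2, filled for the first transcript table and open for the second; the Kcnc1 and Kcnh1 pairs lie near 50%, Kcnd3-202 near 90%, and Kcng3 differs between the animals.

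Kcnc2 adds further ends. Kcnc2-201 held 54.2% of the gene's TPM in replicate 1 and 56.4% in replicate 2, and Kcnc2-204, which has another end of the coding sequence, held 30.3% and 29.4%. Kcnc2-202 was listed at 0 in the first table and held 22.2% and 21.6% in the second, so the remaining share moves with the table.

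Kcnh7-201, with a coding length of 3585 bases, held 81.9% of the gene's coding TPM in replicate 1 and 82.3% in replicate 2. Kcnh7-203, with a coding length of 1566 bases, held 14.8% ± 0.25 (SD, n = 2), or 8.13% in replicate 1 and 6.31% in replicate 2 by the second table.

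In Kcnb2 and Kcna6 the transcripts with a coding sequence share the same one. The transcripts Kcnb2-201 and Kcnb2-202 share their coding sequence of 2721 bases and held 43.1% and 39.0%, and 56.9% and 61.0%, of Kcnb2 in replicates 1 and 2, and which of them led in replicate 1 changed with the table. For Kcnh4 and Kcns3 the leading transcript changed with the table in replicate 2 only, again without a change of coding sequence. There the second table put Kcnh4-202 at 61.4% and Kcns3-202 at 90.0%. Kcnq1 had too few counts for its shares to be read. Kcna6-201, picked after its values were seen, is annotated as a target of nonsense-mediated decay and still held 56.4% of Kcna6 in replicate 1 and 48.8% in replicate 2. Kcna6-204 has the same coding sequence and held 24.0% and 34.7%. The second table split the pair otherwise, with 58.7% and 94.8% for Kcna6-201, so only their summed share can be read.

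Transcripts without a coding sequence held a visible part of some members. Kcnv1-202, annotated as a retained intron, held 28.7% of Kcnv1 in replicate 1 and 31.0% in replicate 2, and 33.2% and 36.9% by the second table. Kcnq3-202, a processed transcript of 666 bases, held 21.1% and 26.3% of Kcnq3, and 26.1% and 36.3% by the second table. Kcnh7-204, a processed transcript, held 20.2% and 23.1% of Kcnh7. Over all members, transcripts annotated as protein coding held 88.4% of the TPM in replicate 1 and 89.5% in replicate 2, against 85.2% and 85.9% over all protein-coding genes. Retained introns held 5.36% and 4.46%, against 7.36% and 6.80%.

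Some levels include RNA that could belong to a neighbour. No window of 100 bases in a member's transcripts was found in another gene's transcripts on the same strand, so reads of that length can be told apart between members. On the opposite strand Kcna6 shared 38% of its windows with the antisense gene Gm26673, which had 1.06 and 1.38 TPM. Kcnh7 shared 3.92% with Gca. Whether the counting used strand is not given in the sources used here, so the Kcna6 level is uncertain to that extent.

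The animals differed little in these genes. The difference of a gene is given as log2(TPM + 0.5) of replicate 1 minus that of replicate 2, a scale that shrinks changes of low genes. With 1 animal on each side it has no replicate check and no p-value. Of the 37 members with a mean of at least 10 counts, 0 were more than 2-fold apart, against 0.695% of the 18136 genes past the same filter. At a fold of 1.25, chosen after the data were seen, 3 members or 8.11% were apart, and all 3 were higher in replicate 1. Among all genes 14.4% were apart by that much, and 8.95% were apart and higher in replicate 1, so these counts single out nothing about the members.

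Kcng2 and Kcnh4 were the members farthest apart with the pseudocount of 0.5, while with 0.1 Kcnq1 was, at a log2 difference of 0.84, against 0.70 for Kcng2 and 0.50 for Kcnh4. Kcng2 had 145 counts in replicate 1 and 102 in replicate 2, and a log2 difference of 0.61. On TMM-scaled counts, which are scaled by edgeR's TMM factors, it was 0.63. The 95% interval of that value for counting error alone was 0.26 to 1.01. Kcnh4 had 467 and 368 counts and a log2 difference of 0.47 by TPM and by TMM-scaled counts, with an interval of 0.27 to 0.67 for the latter. Both stayed positive under every scaling that was tried, with 0.43 and 0.31 when scaled to the spike-ins. That is no separate support, since both were picked as the farthest apart in these same reads. A new scaling shifts all genes nearly alike, and the intervals are not adjusted for that choice. Kcnq1 had a log2 difference of 0.44 by TPM and of 0.22 on TMM-scaled counts, where its counting interval of -0.89 to 1.34 holds 0. Kcnd1 differed by 0.31 by TPM and by -0.01 on TMM-scaled counts. Its coding transcript had 2.73 TPM in replicate 1 and 2.79 TPM in replicate 2, while the short processed transcript Kcnd1-202 had 1.18 and 0.26 TPM. The second table listed Kcnd1-202 at 0 in both. Kcnq5 differed by 0.27 by TPM and by 0.19 on TMM-scaled counts, where its counting interval was 0.13 to 0.26.

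Small shifts toward replicate 1 were common and depended on the scaling. By TPM 32 of the 37 members were higher in replicate 1, against 57.8% of all genes. By TMM-scaled counts 25 were, against 48.0% of all genes, while the second table had 24 of them higher there, against 54.1%. Scaled to the spike-ins only 9 were higher in replicate 1, against 20% of all genes. The median log2 difference was 0.09 over members and 0.03 over all genes by TPM, and -0.11 and -0.14 with the spike-ins, so the direction turned with that scaling for members and for all genes alike.

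On TMM-scaled counts the counting interval lay above 0 for 11 of the 37 members, below 0 for 2, Kcna6 and Kcns2, and held 0 for 24. Among all 18136 genes it lay above 0 for 1930, or 10.6%, and below 0 for 1990, or 11.0%. An interval narrows as counts rise, and the members were not matched to other genes in counts. The members' count is therefore not read as an excess. Other markers moved between the animals as well. All 4 upper-layer markers were higher in replicate 1, with a sum of 350.1 TPM against 290.0 TPM in replicate 2. All 6 immediate early genes were higher too, with 495.6 and 287.7 TPM. All 6 oligodendrocyte markers were lower, with 867.2 and 1160 TPM, and all 6 deep-layer markers as well, with 122.8 and 138.2 TPM. The pan-neuronal sum was 2330 and 2261 TPM. The part of any of these in the members' differences was not tested.

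**Figure D5:**
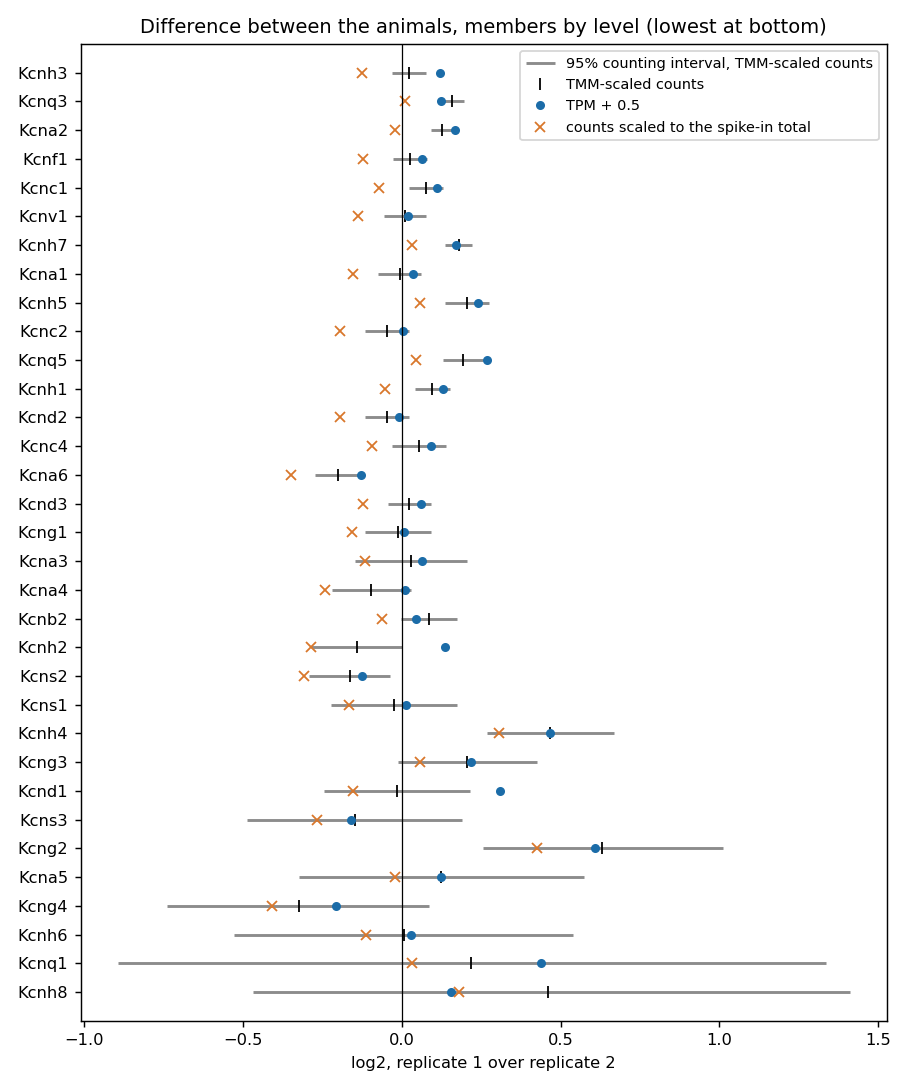
Log2 difference between the animals, replicate 1 over replicate 2, for 33 members with a mean of at least 10 counts, highest level at the top. Blue points use TPM + 0.5, black ticks TMM-scaled counts with their 95% counting interval in grey, and orange crosses counts scaled to the spike-ins; Kcng2 and Kcnh4 lie right of 0 on all of them, and most crosses lie left of 0.

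RefSeq windows (GRCm38.p6) of the 250 bases before the start were at hand for 25 of the 40 members. Those members had 30 windows, and the first one listed for each gene was used. A window need not belong to the main transcript. That of Kcnh2, chr5:24329592-24329841, lies inside the gene, which is on the minus strand and reaches to base 24351604. The windows of Kcna2, Kcnc4 and Kcna7 also lie inside their genes. Those of Kcnh1, Kcnh4, Kcnh6, Kcns3 and Kcna10 lie partly inside. The dinucleotide CG, which reads the same on both strands, occurred between 0 times, for Kcna10, and 41 times, for Kcng3. Windows were called rich in CG where its observed over expected count passed 0.6 and GC content 50%, and 12 of 25 members, or 48.0%, were, against 43.0% of 16522 protein-coding windows. Among single cases, Kcnf1, at a mean of 59.0 TPM, had 1 CG in its window, and Kcng3, at 5.03 TPM, had the most. Of the 16 members at 30 TPM or more 9 had a window, and 5 of these 9 were rich in CG. From 1 to 30 TPM 5 of 12 were, and under 1 TPM 2 of 4. Whether level goes with CG was not tested.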

How the data were processed

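Per the labels, total RNA of 1 group of 2 animals was sequenced. Per the file lists deposited with each library, the tables were made on mm10 with annotation M21; the gene table and first transcript table came from a transcriptome alignment and the second transcript table directly from the reads. Program names, versions and the aligner: not given in the sources used here. Per the file headers, the deposited units are expected counts or estimated counts, TPM over all rows of a file, posterior mean TPM with interval bounds of an unstated level, and the percent of a gene's TPM per transcript. Effective length was the length less 99 bases. The CAST/EiJ allele was counted on the same build, and the effect of that was not tested.

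Computed here were means and SDs of TPM over 2 animals, sums, ratios, transcript shares, and log2 of replicate 1 over replicate 2 on TPM + 0.5. The 26248 numbered rows that name no gene, with 7 and 10 counts, or 2.3e-05% and 3.0e-05%, were left out of library sizes. Expected counts were rounded for TMM (edgeR 4.0.16) and DESeq2 1.42.0 size factors in R 4.3.3; scipy 1.17.1, pandas 2.3.3, numpy 2.4.6 and, for figures, matplotlib 3.10.9 ran under Python 3.11.15. Counting intervals are exact binomial ones at 95% on TMM-scaled counts; they and the limit of 3 counts cover counting error only, since reads are not independent molecules. No test between groups was possible with 1 group, and no p-value is given. A simulation of replicate 1 against replicate 2, with an assumed CV of 6%, served as a check of the arithmetic: genes changed 2-fold up came out at a median log2 of 0.99 and those changed 2-fold down at -0.96.

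Some members and markers are not reported here; counts over all members include them. Named in full, of the rest, were the 15 highest members, the highest and lowest of each subfamily, those under 1 TPM, the 5 farthest apart, members with at least 2 transcripts of 10% or more or a leading transcript that changes with the table, and the partners. The members and lists were chosen with earlier results of these data known. A planned search of protein sequences for channel motifs was not run. KCNE5 was matched to Kcne1l by its RefSeq synonym.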

Additional observations from a re-analysis of the deposited data

How the results depend on the processing

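The second transcript table moved the median member level to 25.8 TPM from 16.4 TPM by the gene table, the median subfamily sum to 117 from 82.3 TPM and the median partner level to 58.5 from 32.6 TPM, and the posterior mean TPM moved the median member level to 16.0 TPM. Members detected ranged from 31 to 35 over the detection levels of 0.5 and 2 TPM and the other tables, against 34. The count over 2-fold apart was 0 under every alternative run, and 3 at a fold of 1.25. The median member log2 difference was 0.091 by TPM + 0.5, 0.093 with a pseudocount of 0.1, 0.089 with 1, 0.053 by the second table, 0.074 without a count filter, 0.028 by TMM-scaled counts, 0.027 by DESeq2 size factors, and -0.11 scaled to the spike-in total, where the sign reversed and 9 members were higher in replicate 1 against 32 by TPM. The cause was not tested; the median of all genes turned as well. The median share of the leading transcript was 83.6%, 81.2% by the second table, and 82.9% to 86.7% when either animal was left out. Leaving out either animal gave 34 detected members each time, and median levels of 16.2 to 16.6 TPM. Of 87 single levels, subfamily sums and shares, 70 moved with the second table by more than 1 SD and 17 did not. That table was higher in general, a median of 1.59 times over all genes with a mean of 10 counts or more. Levels and sums were therefore likely to move, and the count of 70 is no measure of stability. With 2 animals, leaving 1 out gives the value of the other, which lies within 1 SD of the mean by construction and says nothing about stability. Of 40 levels, 15 moved with the posterior mean. No paired analysis was possible because there is 1 group. Levels near 1 TPM or on fewer than 50 counts, such as those of Kcnq1 and Kcnh8, are limited by depth, and 2 animals give no more than a rough spread.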
